A study of Mus musculus with 16 samples.

Results

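The regulators of mitochondrial biogenesis described here are 10 nuclear genes. They are the coactivators Ppargc1a and Ppargc1b, the nuclear receptors Esrra and Esrrg, the transcription factors Nrf1 and Gabpa, and 4 factors that act inside mitochondria on their genome or RNA, Tfam, Tfb1m, Tfb2m and Polrmt. They were taken by name, and each matched 1 of the 25006 gene identifiers listed in the count tables. All 10 passed the filter on low counts and were among the 12390 genes tested.

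The libraries hold mRNA bound to tagged ribosomes of dopaminergic neurons in the substantia nigra of 45-day-old mice, 1 library per mouse. Control mice were DAT-Cre+/- (n = 8), and MCU-KO mice were DAT-Cre+/- MCU fl/fl (n = 8), so that Mcu, the pore of the mitochondrial calcium uniporter, was deleted only where the dopamine transporter drives Cre. Mice of both genotypes carried Cre and received, 30 days before dissection, an AAV with a Cre-dependent RiboTag, a ribosomal protein that can be immunoprecipitated through a Flag tag. According to the study's methods, the controls came from a cross of DAT-Cre+/+ with C57/BL6 mice and not from the litters of the MCU fl/fl mice, so a difference of strain background and the deletion cannot be told apart.

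Mitochondria are built from proteins of the nuclear and the mitochondrial genome. PGC-1 coactivators, which bind no DNA themselves, act through NRF-1, GABP (also called NRF-2) and the estrogen-related receptors to switch on nuclear genes of respiration, and among the targets of these factors are the genes of the mitochondrial transcription machinery. Dopaminergic neurons of the substantia nigra spike autonomously and depend on mitochondrial ATP, and the comparison asks whether loss of the uniporter was accompanied by a change in the ribosome-bound mRNA of this program.

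Library totals ranged from 18999107 to 22016362 counts in control and from 14129527 to 20582204 in MCU-KO mice. A floor of 3 counts corresponded to 0.136 to 0.212 CPM (counts scaled to the size of the library). The libraries carry no molecular identifiers, so this floor reflects counting error alone. The dopaminergic markers Th, tyrosine hydroxylase, and Slc6a3, the dopamine transporter, had means of 114253 and 62800 normalized counts in control, and 95% confidence intervals of −0.30 to 0.18 and −0.42 to 0.13 on the log2 scale. The summed level of 8 oligodendrocyte markers was 2915 to 5668 CPM in control and 3433 to 6654 CPM in MCU-KO, against 14983 to 19400 and 12774 to 21544 CPM for 10 dopaminergic markers, so the libraries also held mRNA of glia. Sums of 8 astrocyte markers (893 to 1530 and 983 to 1652 CPM), 8 microglia markers (79.5 to 205 and 75.7 to 277 CPM), 5 endothelial markers (7.50 to 35.2 and 6.42 to 21.7 CPM) and 5 markers of GABAergic and glutamatergic neurons (149 to 284 and 112 to 380 CPM) overlapped between the genotypes. No marker was at 0 in all mice of a group, and 0 of the markers tested passed the adjusted threshold. In such samples, fewer neurons and less RNA per neuron cannot be told apart. Mcu had 120 to 828 normalized counts (median 401, counts divided by DESeq2's size factors) in control and 5.82 to 410 (median 246) in MCU-KO. For Mcu, edgeR's quasi-likelihood test estimated the log2 fold change at −1.19, with 95% confidence bounds of −2.41 and 0.04 (unadjusted p = 0.0569 and adjusted p = 1.00). With DESeq2's Wald test the unadjusted p was 0.0405 and the adjusted p 0.826. The study itself checked the deletion by qRT-PCR of Mcu in RiboTag mRNA and by imaging of mitochondrial calcium, and reports that both were reduced in MCU-KO. The Mcu levels of the genotypes overlapped, and counts over the whole gene include exons outside a floxed stretch, so that they do not check the label of each library.

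None of the 10 regulators passed the threshold between MCU-KO and control. With edgeR's quasi-likelihood test and Benjamini-Hochberg adjustment over all genes, 0 of 10 had an adjusted p under 0.05, where 22 of 12390 genes did (0.178%). Before adjustment, 0 of 10 regulators and 547 genes (4.41%) had p under 0.05. DESeq2 called 0 of 10 regulators and 90 of the 16171 genes to which it gave an adjusted p (0.557%), and limma-voom called 0 of 10 regulators and 27 of 12390 genes (0.218%). The normalized counts of the genotypes overlapped for every regulator, whereas they were separate for 32 genes (0.258%). At these background rates a list of 10 genes would rarely hold a called gene, so a count of 0 does not set the regulators apart from other genes. The fold changes went both ways, with 5 regulators higher and 5 lower in MCU-KO and a median log2 fold change of −0.02 (0.00 over all genes tested), and this division was the same under 4 scalings of the libraries.

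The promoters of the regulators were searched for motifs of the factors among them. In the RefSeq promoters of GRCm38.p6, taken from 250 bases before to 50 after the start of a gene, both strands were searched for 4 motifs, and 9 of the 10 regulators had an entry (all but Ppargc1b). The letters GCATGCGC, the core of the NRF-1 motif, stood in 3 of these 9 and in 2.71% of 32851 promoters. The GABP (ETS) letters CCGGAAGT stood in 1 of the 9 and in 3.89% of promoters. A share of promoters is not a share of genes. Counted by gene, as the regulators were, 589 of the 9801 tested genes with a promoter entry held the NRF-1 core. The GABP letters were held by 883 of them, so 1 of 9 is not read as an excess. The full NRF-1 motif, which is this core preceded by GC, and the ERR element AAGGTCA stood in 0 of the 9, against 0.971% and 4.72% of promoters, which says only that these letters were not in the window searched. The matches are shown because they lie in promoters of regulators that other regulators are known to act on. They are printed on the strand of the gene, which is the minus strand in each case, with the motif in capitals (in Polrmt it lies on the opposite strand and is read as its reverse complement), at chr1:179546245-179546274 for Tfb2m, chr10:79746696-79746725 for Polrmt, chr19:6921824-6921853 for Esrra and chr10:71238073-71238102 for Tfam:
Tfb2m, NRF-1 core: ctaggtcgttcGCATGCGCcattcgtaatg
Polrmt, NRF-1 core: agagtatttctGCGCATGCtctcttgccgc
Esrra, NRF-1 core: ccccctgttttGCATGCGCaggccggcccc
Tfam, GABP (ETS): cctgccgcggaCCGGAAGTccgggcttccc

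Counted from the RefSeq start, the first motif base lay 14 bases after it in Tfb2m, and 133, 34 and 47 bases before it in Polrmt, Esrra and Tfam. The gene coordinates given below are from GENCODE, whose starts can differ from those of RefSeq. For Tfam they do, and the printed window lies inside its GENCODE bounds (71225464 to 71238280), not before them. A match of letters is a description of the sequence and not of a bound site.

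**Figure D1:**
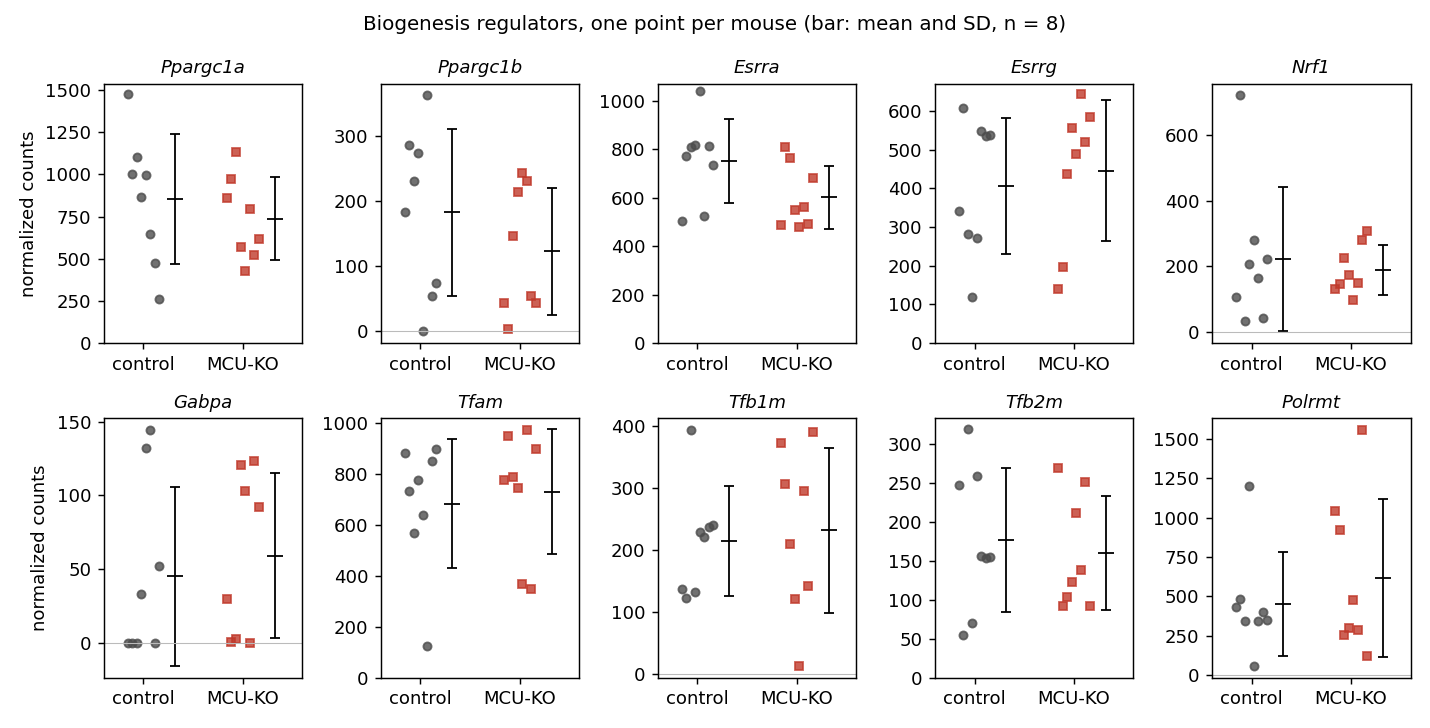
Normalized counts (counts divided by DESeq2's size factors, vertical axis from 0) of the 10 regulators in each of 8 control mice (grey circles) and 8 MCU-KO mice (red squares), with bars for the mean and SD of each genotype. The genotypes overlap in every panel, and 1 control mouse stands far from the other control mice in Nrf1 (722), Tfam (124), Tfb1m (393) and Polrmt (1204), although MCU-KO mice reach 391 in Tfb1m and 1555 in Polrmt.

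Ppargc1a encodes PGC-1α, the coactivator best known for driving mitochondrial biogenesis, and is located on chromosome 5 (51454250 to 51567726 of GRCm38, minus strand). Its normalized counts were 262 at the lowest, 930 at the median and 1478 at the highest in control mice, and 429, 705 and 1136 in MCU-KO mice. The MCU-KO values lay inside the control range, and 2 of 8 were above the control median. Its log2 fold change was −0.21 (SE 0.29, 95% confidence interval −0.82 to 0.40, unadjusted p = 0.484 and adjusted p = 1.00, edgeR), an interval that spans 0.567-fold to 1.32-fold, and it was −0.048 without control mouse 1. Ppargc1b, which encodes the related PGC-1β (chromosome 18, 61298136 to 61400431), had 0, 207 and 362 normalized counts in control and 3.90, 100.2 and 243 in MCU-KO. Levels near 0 were seen in both genotypes, with 1 control mouse at 0. The estimate of −0.58 on the log2 scale was wide, with bounds of −2.36 and 1.21 (95% confidence interval, unadjusted p = 0.510, edgeR), and was −0.14 with limma-voom.

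Per kb of exon, Ppargc1a exceeded Ppargc1b in 8 of 8 control mice and 8 of 8 MCU-KO mice. The within-mouse log2 ratio had a median of 1.31 in control (0.11 to 9.35) and of 2.37 in MCU-KO (0.09 to 6.92). By a two-sided exact sign-flip permutation test, each of these directions had p = 0.0078, the lowest value possible with 8 mice, or 0.0117 after Benjamini-Hochberg adjustment over 6 contrasts, which were chosen after the counts had been seen. With the longest transcript as length, 7 of 8 MCU-KO mice kept this order. The mean of this log2 ratio was 2.35 in control (SD 2.93) and 2.52 in MCU-KO (SD 2.15). These means differed by 0.17, far less than either SD (p = 0.887, exact permutation test over all splits of the mice). The medians lay farther apart than the means, and the control mean includes the mouse at 9.35, in which Ppargc1b had no count.

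Esrra encodes ERRα, an orphan nuclear receptor through which PGC-1α acts on genes of oxidative metabolism (chromosome 19, 6910977 to 6921813, minus strand). It had 505, 791 and 1044 normalized counts (lowest, median and highest) in control and 479, 555 and 808 in MCU-KO. The groups overlapped, but 1 of 8 MCU-KO mice was above the control median, the fewest of the 10 regulators. Its mean was 753 ± 173 (SD, n = 8) in control and 602 ± 131 (SD, n = 8) in MCU-KO. Between the genotypes the log2 fold change was −0.32 (SE 0.22, 95% confidence interval −0.77 to 0.12), with the smallest p of the 10 regulators, 0.149, and an adjusted p of 1.00 (edgeR). The interval spans 0.587-fold to 1.09-fold, so that among these regulators Esrra had the narrowest bounds, and a 2-fold decrease lies outside them. Over all alternatives its log2 fold change stayed between −0.39 and −0.24, and its lowest p was 0.0861. Esrra shares 73 exon bases (1.66%) with the antisense gene Trmt112 and 91 (2.07%) with Mir6990. How reads in these stretches were counted is not given in the sources used here.

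Esrrg encodes ERRγ, the family member enriched in tissues of high oxidative demand (chromosome 1, 187608791 to 188214885, plus strand). Its normalized counts were 120, 439 and 609 in control and 139, 504 and 645 in MCU-KO, nearly the same range. An estimated log2 fold change of 0.14 (SE 0.37, 95% confidence interval −0.63 to 0.90, unadjusted p = 0.718, edgeR) became −0.0022 without control mouse 4. Per kb, Esrra exceeded Esrrg in 8 of 8 control mice and in 8 of 8 MCU-KO mice. The within-mouse log2 ratio was 1.51 ± 0.96 (SD, n = 8) in control and 1.07 ± 0.89 (SD, n = 8) in MCU-KO, each with p = 0.0078 and 0.0117 after adjustment (exact sign-flip permutation test). ERRα mRNA was thus the more abundant of the pair in every mouse. The difference of this ratio between the genotypes, −0.45, was within the spread of mice (p = 0.341, exact permutation test).

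**Figure D2:**
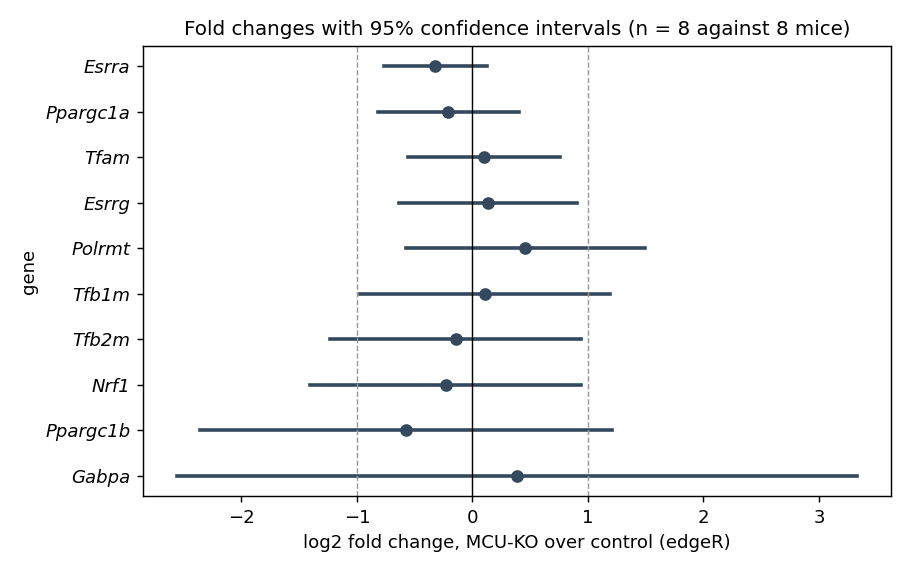
Log2 fold changes (MCU-KO over control, horizontal axis, edgeR) of the 10 regulators with their 95% confidence intervals, ordered by the width of the interval, with dashed lines at −1 and 1. Every interval includes 0, and those of Esrra, Ppargc1a, Tfam and Esrrg lie wholly within 1 log2 unit, whereas that of Gabpa runs from −2.56 to 3.33.

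Nrf1 encodes the DNA-binding factor NRF-1 that regulates many respiratory genes (chromosome 6, 30047988 to 30153458, plus strand). Control mice had 33.5, 185 and 722 normalized counts at the lowest, median and highest, and MCU-KO mice had 97.0, 162 and 308. The highest value was that of control mouse 2, and the next control mouse had 280. Across genotypes, Nrf1 had a log2 fold change of −0.23 (SE 0.57, 95% confidence interval −1.41 to 0.94, unadjusted p = 0.685, edgeR). Without control mouse 2 it was 0.33, so its sign turned when that library was left out.

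Gabpa encodes the DNA-binding subunit of GABP (chromosome 16, 84834925 to 84863779, plus strand) and had the lowest level of the 10. Its normalized counts were 0, 16.5 and 144 in control and 0, 61.1 and 123 in MCU-KO, with 4 control mice and 1 MCU-KO mouse at 0. Both genotypes thus held mice without a count and mice above 100 normalized counts. Its fitted log2 fold change was 0.38, between bounds of −2.56 and 3.33 (95% confidence interval, unadjusted p = 0.789, edgeR), so that with this spread between mice the interval includes changes of several fold in either direction. Of its exon bases, 397 (6.98%) overlap the antisense gene Atp5j, a subunit of ATP synthase, and without strand information reads from the pair could not be separated there.

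Tfam encodes the protein that packages mitochondrial DNA and activates its transcription (chromosome 10, 71225464 to 71238280, minus strand). It had 124, 752 and 896 normalized counts in control and 348, 783 and 972 in MCU-KO. Control mouse 6, at 124, stood below all others, of which the next lowest control mouse had 567. The mean was 682 ± 254 (SD, n = 8) in control and 730 ± 244 (SD, n = 8) in MCU-KO. The fit gave a log2 fold change of 0.10 (SE 0.32, 95% confidence interval −0.56 to 0.76, unadjusted p = 0.760, edgeR), which corresponds to 0.678-fold to 1.69-fold. Without control mouse 6 it was −0.058, still inside the interval.

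Polrmt encodes the mitochondrial RNA polymerase (chromosome 10, 79736123 to 79746581, minus strand). Its normalized counts were 59.2, 375 and 1204 in control and 124, 386 and 1555 in MCU-KO. The medians were close, and the larger MCU-KO mean (619 ± 501 against 452 ± 329, SD, n = 8 each) went with high values in a few mice, the highest in each genotype being more than 3 times its median. At 0.46 its log2 fold change was the highest of the 10 (SE 0.50, 95% confidence interval −0.57 to 1.49, unadjusted p = 0.367, edgeR), and it was 0.10 without MCU-KO mouse 7 and 0.85 without control mouse 4.

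Tfb2m encodes the transcription factor that opens the mitochondrial promoters for the polymerase (chromosome 1, 179528055 to 179546267, minus strand). It had 54.6, 155 and 319 normalized counts in control and 91.6, 130 and 269 in MCU-KO, and the MCU-KO values lay inside the control range. The estimate was −0.14 on the log2 scale (SE 0.52, 95% confidence interval −1.23 to 0.94, unadjusted p = 0.785, edgeR), and 0.036 without control mouse 3. Of the stretches of 50 bases in its transcripts, 31.9% also occur in the pseudogene Gm1818, so its counts are uncertain. For the other 9 regulators this share was at most 4.68%.

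Tfb1m encodes the related factor that methylates the ribosomal RNA of mitochondria (chromosome 17, 3519256 to 3557781, minus strand). Control mice had 123, 226 and 393 normalized counts, and MCU-KO mice had 13.6, 253 and 391. One MCU-KO mouse was far below the rest, and the highest values of both genotypes were alike. Its log2 fold change of 0.11 (SE 0.52, 95% confidence interval −0.97 to 1.19, unadjusted p = 0.836, edgeR) became −0.017 without MCU-KO mouse 1 and −0.034 without MCU-KO mouse 8. Tfb1m shares 142 exon bases (3.94%) with the antisense gene Tiam2. Per kb, Tfb2m and Tfb1m were close, with a within-mouse log2 ratio of −0.03 ± 0.64 (SD, n = 8) in control (p = 0.914, exact sign-flip permutation test) and of 0.15 ± 1.89 (SD, n = 8) in MCU-KO (p = 0.875, same exact test).

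Ordered by normalized counts per kb of exon in control, Esrra (172 ± 39.5, SD, n = 8) was followed by Tfam (154 ± 57.2), Ppargc1a (129 ± 58.2) and Polrmt (96.4 ± 70.2). Esrrg (65.4 ± 28.3), Tfb2m (63.0 ± 32.9), Tfb1m (59.4 ± 24.4) and Ppargc1b (45.8 ± 32.2) came next, and Nrf1 (21.6 ± 21.4) and Gabpa (7.95 ± 10.7) were lowest. The mean of the first was 21.6 times that of the last. Of the neighbours in this order, 0 of 9 pairs passed after adjustment (exact sign-flip permutation test). With 8 mice the lowest p possible is 0.0078, so a single pair could not pass adjustment over 9 pairs on its own. The count of 0 therefore does not show that neighbours were alike. The smallest p was 0.0234 for Nrf1 against Gabpa (0.211 adjusted, same test). Their within-mouse log2 difference was 3.28 (SD 3.21), with Nrf1 higher in 7 of 8 control mice. In MCU-KO mice, Tfam was first and Esrra second, Polrmt passed Ppargc1a, Tfb1m passed Tfb2m, and Ppargc1b, Nrf1 and Gabpa again closed the order. The mRNA of the receptor, the packaging factor and the coactivator was therefore ahead of that of NRF-1 and GABPα in both genotypes, by these means. With the longest transcript as length, Esrra, Tfam, Ppargc1a and Polrmt remained the first 4 and Gabpa the last in control. Values of single genes moved with this length, Nrf1 from 21.6 to 55.0 per kb, which put it above Ppargc1b, and Esrra from 172 to 302.

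**Figure D3:**
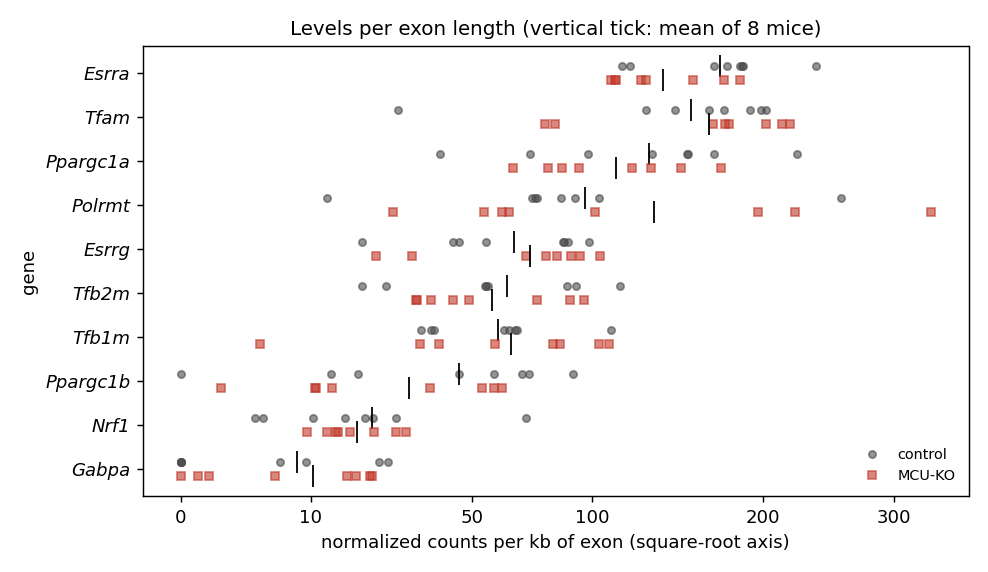
Normalized counts per kb of exon (horizontal axis, square-root scale) of the regulators in 8 control (grey circles) and 8 MCU-KO mice (red squares), ordered by the control mean, with a vertical tick at the mean of each genotype. Control means run from 172 for Esrra down to 7.95 for Gabpa, and the points of neighbouring genes overlap.

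The summed level of the 10 regulators was steadier than that of its members. A sum of genes that do not vary together is steadier by averaging alone, so this does not show that the regulators offset each other. The sum was 169 to 248 CPM (207 ± 27.1, SD, n = 8) in control and 150 to 229 CPM (203 ± 25.9, SD, n = 8) in MCU-KO. Single regulators varied between libraries well beyond the counting error of reads. With 1 library per mouse and no molecular identifiers, differences between mice and those from library preparation cannot be told apart. The coefficient of variation in control was 23.0% for Esrra, where counting alone gives 3.53%, 37.2% for Tfam (3.71%), 72.9% for Polrmt (4.53%), 98.9% for Nrf1 (6.42%) and 134% for Gabpa (14.6%). Without the control mouse that stood apart for each gene, a step chosen after the counts had been seen, it was 16.4% for Tfam, 39.5% for Polrmt and 62.3% for Nrf1. In MCU-KO mice it was 21.8% for Esrra, 33.5% for Tfam, 81.0% for Polrmt, 39.7% for Nrf1 and 94.5% for Gabpa. This spread set how small a change could be seen. The 95% confidence interval lay within 1 log2 unit of 0 for 4 of the 10 regulators, Ppargc1a, Tfam, Esrra and Esrrg (40% against 51.8% of all genes tested), so that for these a 2-fold change in either direction lay outside the interval.

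The biological coefficient of variation removes the counting error of reads but keeps any other difference between libraries. It had a median of 69.8% over the regulators and 47.8% over all genes. Set against genes of 0.5 to 2 times the same level, Esrra varied less (31.8% against a median of 39.8%), as did Tfb2m (72.2% against 89.6%). They lay above 20.6% and 27.8% of such genes. Polrmt (67.6% against 51.3%), Gabpa (191% against 161%) and Ppargc1b (112% against 87.7%) varied more, above 80.4%, 77.2% and 74.3% of such genes. The other regulators were nearer genes of their level, above 39.9% (Tfb1m) to 64.3% (Ppargc1a) of them. These were Ppargc1a (41.6% against 37.6%), Tfam (44.7% against 41.5%), Esrrg (52.2% against 54.6%), Nrf1 (77.7% against 77.3%) and Tfb1m (71.9% against 79.2%).

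**Figure D4:**
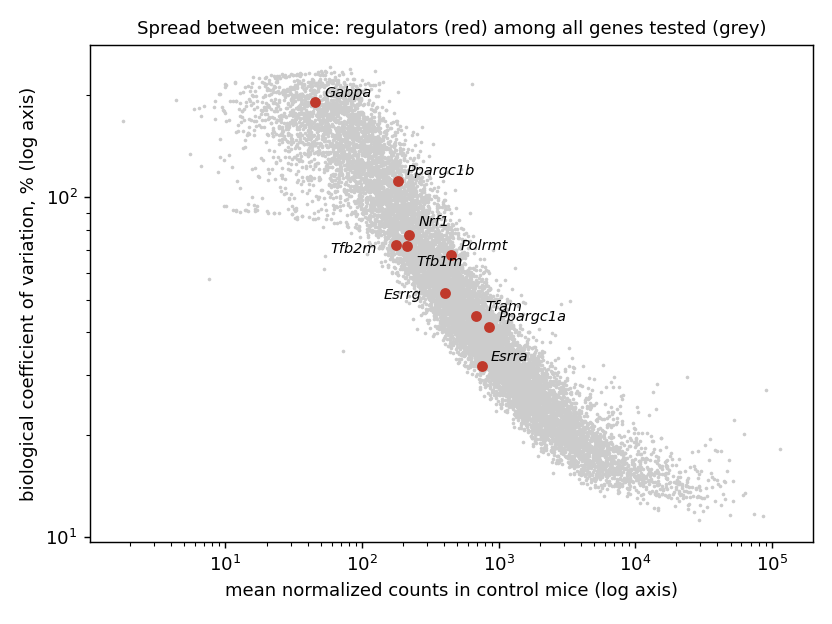
Biological coefficient of variation (%, log axis) against the mean normalized counts in control mice (log axis) for all 12390 genes tested (grey) and the 10 regulators (red). The regulators follow the band of all genes, from Gabpa at 191% to Esrra at 31.8%.

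Whether regulators varied together from mouse to mouse was examined with the genotype means removed (log2 CPM, 16 mice, 45 pairs). None of the 45 pairs passed adjustment (permutation tests, smallest adjusted p 0.386), and 5 had an unadjusted Pearson p under 0.05. Correlations lay between −0.58 and 0.49 with a median of −0.11, and 16 were positive. The most negative was that of Ppargc1b with Esrra (r = −0.58, permutation p = 0.0160, rho = −0.55, p = 0.0284), which was −0.16 without the 2 mice farthest from the median. Tfam and Esrra had the highest (r = 0.49, permutation p = 0.0492, rho = 0.21, p = 0.431), which was 0.18 without 2 such mice. Both values of r were weaker without those mice, which were chosen by the level of Ppargc1b and of Tfam. These 2 pairs were picked as the extremes, and not every pair weakened. That of Tfam with Tfb1m went from 0.31 to 0.69 without the same 2 mice as for Tfam with Esrra. Over all 16 mice, rho was near r for Ppargc1b with Esrra but not for Tfam with Esrra. Among the other 12389 genes tested, the 3 whose pattern over the 16 mice was most like that of Esrra, the regulator with the highest level per kb in control, were Aplf (r = 0.86, rho = 0.82), Ndc1 (r = 0.84, rho = 0.81) and Tnfrsf8 (r = 0.83, rho = 0.74). They were the highest of many and are given as a description.

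The partners, inputs and targets of the regulators were followed through lists of genes known to act with them. Of 95 such genes tested, 0 had an adjusted p under 0.05 in edgeR, DESeq2 or limma-voom, and 1 had an unadjusted p under 0.05 in edgeR. Among family partners, 4 of 6 genes were tested, of which 1 was higher and 3 lower. Pprc1, the third PGC-1 family coactivator, had the smallest p, with 219 ± 179 normalized counts (SD, n = 8) in control and 99.5 ± 98.6 (SD, n = 8) in MCU-KO, with bounds of −3.34 and 1.07 on the log2 scale (95% confidence interval). Hcfc1, a cofactor of the family and the most abundant of that list, had 685 ± 276 and 662 ± 332.

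Upstream regulators and corepressors, such as the deacetylase gene Sirt1 and the AMP-activated kinase genes Prkaa1 and Prkaa2, had 21 of 24 genes tested, 13 higher and 8 lower (median log2 fold change 0.07). Ncor1, a nuclear receptor corepressor, was both the most abundant and the one with the smallest p, at 2874 ± 733 normalized counts in control and 3557 ± 707 in MCU-KO (SD, n = 8 each). Its log2 fold change was 0.31 (95% confidence interval −0.01 to 0.63, unadjusted p = 0.0571 and adjusted p = 1.00, edgeR).

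Genes that maintain mitochondrial DNA had 15 of 16 tested, 8 higher and 7 lower (median 0.08). Ssbp1, the mitochondrial single-stranded DNA-binding protein, had 1265 ± 188 normalized counts in control and 1055 ± 190 in MCU-KO, with bounds of −0.59 and 0.06 on the log2 scale. The most abundant gene there was the protease gene Lonp1, with 1804 ± 665 and 1899 ± 723. Of genes of mitochondrial transcription and RNA maturation, 14 of 18 were tested, with 4 higher and 10 lower (median −0.10). Lrpprc, which stabilizes mitochondrial mRNA, had 1004 ± 370 and 742 ± 306 normalized counts (95% confidence interval −1.01 to 0.14), and Grsf1, an RNA-binding protein of mitochondrial RNA granules, had 2846 ± 508 and 2680 ± 387. In both lists the values of the genotypes overlapped within their spread for the genes named.

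The 13 mRNAs encoded by the mitochondrial genome, mt-Nd1 to mt-Nd6, mt-Cytb, mt-Co1 to mt-Co3, mt-Atp6, mt-Atp8 and mt-Nd4l, were listed at 0 in all 16 mice. The output of Polrmt and Tfb2m could therefore not be measured. The tag sits on cytosolic ribosomes, which do not translate these mRNAs, but whether their reads were left out at an earlier step is not given in the sources used here.

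Targets of NRF-1 and GABP were measured closely. All 20 passed the filter, and for all 20 the 95% confidence interval lay within 1 log2 unit of 0. Of these, 16 were lower and 4 higher in MCU-KO (15 and 5 with upper-quartile scaling or library totals only), with a median log2 fold change of −0.07, where 49.6% of all genes were lower. This division was not tested. Many of the 20 encode subunits of the same respiratory complexes, so their directions cannot be counted as independent. Tomm70a, a receptor of the outer membrane import machinery, was the gene with an unadjusted p under 0.05 and was higher, with 3249 ± 639 normalized counts in control and 4009 ± 860 in MCU-KO (SD, n = 8 each, log2 fold change 0.30, 95% confidence interval 0.01 to 0.60, unadjusted p = 0.0424 and adjusted p = 1.00, edgeR). Atp5b, the catalytic subunit of ATP synthase, had the highest mean CPM, with 38190 ± 5226 and 37422 ± 8066 normalized counts. In control mice alone Cox4i1 was slightly higher (38430 ± 2239, and 36405 ± 4389 in MCU-KO).

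ERR targets had 12 of 12 genes tested, 4 higher and 8 lower (median −0.04). Ckmt1, the mitochondrial creatine kinase, had 6167 ± 2129 and 5182 ± 1544 normalized counts (95% confidence interval −0.65 to 0.15 on the log2 scale), and Atp5b, also on this list, was the most abundant here. Genes known to depend on PGC-1α in neurons had 11 of 11 tested, 4 higher and 7 lower (median −0.10). Sod2, the mitochondrial superoxide dismutase, had 5095 ± 819 and 4487 ± 636 (95% confidence interval −0.42 to 0.05), and Cplx1, a regulator of vesicle fusion, had 53092 ± 12286 and 49642 ± 11178.

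**Figure D5:**
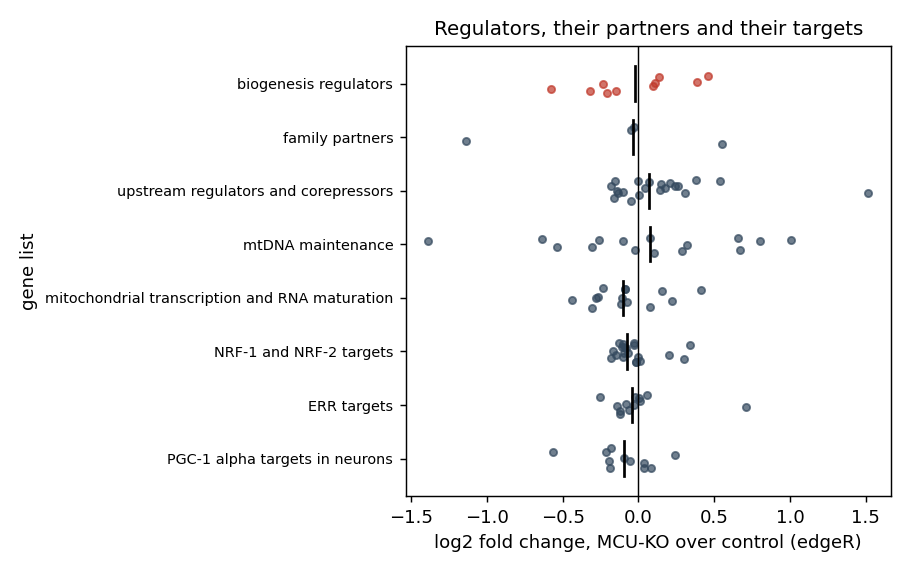
Log2 fold changes (MCU-KO over control, horizontal axis, edgeR) of the 10 regulators (red) and of the tested genes of 7 lists of their partners, inputs and targets (blue-grey), 1 point per gene, with a black tick at the median of each list. The medians lie between −0.10 and 0.08, and the NRF-1 and NRF-2 targets are the most tightly placed, from −0.18 to 0.34.

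Genes that carry the searched motifs in their promoter were described in the same way. Of 225 tested genes with the full NRF-1 motif, 53.3% were lower in MCU-KO and 0 passed the adjusted threshold, with 7 (3.11%) at an unadjusted p under 0.05 (edgeR). Of 589 tested genes with the NRF-1 core, 51.4% were lower in MCU-KO and 0 passed the adjusted threshold, with 28 (4.75%) at an unadjusted p under 0.05. For the GABP (ETS) letters, 52.2% of 883 genes were lower and 1 passed, and for the ERR element 54.0% of 383 were lower and 2 passed. Among all 9801 tested genes with a promoter entry, 49.7% were lower and 18 passed. The median log2 fold changes of the 4 motif groups were, in the same order, −0.03, −0.02, −0.01 and −0.03, beside 0.00 for all genes with a promoter entry, and motif groups overlap in their members.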

How the data were processed

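RiboTag RNA-seq libraries of 8 control and 8 MCU-KO mice were grouped by genotype as labelled. The study's text counts more MCU-KO mice than the libraries analysed here. The authors trimmed reads (cutadapt in the study's methods, Trim Galore in the submitters' processing notes), aligned them with STAR (mm10) and deposited raw whole-number counts per gene from HTSeq. Tool versions and strandedness are not given in the sources used here.

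Genes were tested with edgeR 4.0.16 in R 4.3.3 (filterByExpr, TMM, glmQLFit, glmQLFTest, Benjamini-Hochberg adjustment over 12390 genes, threshold 0.05). Normalized counts are counts divided by DESeq2 1.42.0 size factors. Symbols, exon lengths and coordinates were from GENCODE M21 (GRCm38), and promoters from RefSeq (GRCm38.p6). Exact permutation tests were run in Python 3.11.15 with scipy 1.17.1. Alternatives were DESeq2, limma-voom (limma 3.58.1), other scalings and filters, a block for the mouse number, and the omission of each mouse. Correlations used log2 CPM with a prior count of 2 and 100000 resamples, and levels per kb a prior count of 1 in tests.

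Library totals of 14129527 to 22016362 counts left the counting error of reads small beside the spread between libraries for most regulators. Replicates were separate mice. On counts simulated for 12390 genes, edgeR recovered 2% of 50 genes changed 1.5-fold, 36% of 50 changed 2-fold and 58% of 50 changed 4-fold, in the same comparison of 8 against 8. The changed genes were drawn at random from all genes tested, so these rates are not those of the regulators. The biological coefficient of variation of the regulators had a higher median (69.8% against 47.8%).

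The regulators and lists were chosen with earlier results of these data known. The genes named were the regulators, Mcu, Th and Slc6a3, in each list the gene with the smallest p (or those past the threshold) and the most abundant gene, and the 3 genes most like the regulator with the highest level per kb in control. Prorp matched no symbol. A planned test of the mitochondrially encoded share of counts could not be run, since those mRNAs were at 0. Same-numbered mice did not deviate together (correlations −0.06 to 0.03), so the numbers were not taken as pairs.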

Additional observations from a re-analysis of the deposited data

Results flagged for a closer look

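In 5 of 30 groups of 8 mice examined, the most extreme mouse lay farther from its nearest neighbour than Dixon's 95% critical value allows. For normally distributed values, chance flags about 1 in 20 groups (1.5 of 30). The rule was applied without a log transformation, and skewed values are flagged more often, so the 5 are not read as an excess. Tfam was low in control mouse 6, at 124 normalized counts with the nearest control mouse at 567. Nrf1 was high in control mouse 2, at 722 beside 280. Tfb1m was high in control mouse 3, at 393 beside 241. Polrmt was high in control mouse 4, at 1204 beside 483. Library depth was low in MCU-KO mouse 8, with 14129527 counts beside 19897268 in the nearest MCU-KO mouse. The 4 genes were extreme in 4 different control mice.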

How the results depend on the processing

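The count of 0 regulators and of 0 pathway genes past the threshold was the same under each alternative of test, scaling, filter and block and with each mouse left out (0 to 0). Over all genes, the count of 22 became 90 with DESeq2 and 14 with a replicate block for the mouse number, and 18 to 24 with 1 mouse left out. DESeq2 gave an adjusted p to 16171 genes, and 57 of its 90 were among the 12390 tested with edgeR. The block changed no call among the regulators, and no same-numbered pair of mice correlated above 0.1. Of 238 alternative fold changes of single regulators, 0 passed the threshold and 10 changed sign. For Nrf1 the log2 fold change was then 0.18 with limma-voom, 0.21 with the block and 0.33 without control mouse 2 (−0.40 to 0.33 with each mouse left out). For Tfb1m it was −0.27 with limma-voom, −0.091 with the block, and −0.017 or −0.034 without MCU-KO mouse 1 or 8 (−0.034 to 0.30). With single mice left out, it was −0.29 to 0.036 for Tfb2m (control mouse 3), −0.0022 to 0.27 for Esrrg (control mouse 4) and −0.058 to 0.20 for Tfam (control mouse 6), where the value that changed sign belongs to the mouse in brackets. Ppargc1a, Ppargc1b, Gabpa, Esrra and Polrmt kept their sign throughout, with ranges of −0.34 to −0.048, −0.79 to −0.14, 0.14 to 2.27, −0.39 to −0.24 and 0.10 to 0.85 in this order. Beyond the omission of a mouse, the cause was not tested. Ppargc1b and Gabpa could not be fitted where at least 10 counts were required in every mouse. Under their alternatives, 0 of 9 neighbouring pairs, 0 of 45 correlations and 4 of 6 paralogue contrasts passed adjustment, as before. The paralogue contrasts were chosen after the counts had been seen, and a single neighbouring pair could not have passed on its own. The alternatives on the mitochondrially encoded share of counts were not run, since all 13 mRNAs were at 0. The spread between mice limits what can be said of most regulators.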
